A study of Mus musculus with 8 samples.

Results

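A set of 6 genes of Schwann cells and peripheral nerve, Pmp22, Prx, Pmp2, Egr2, Cdh19 and Foxd3, was followed in the whole cerebellum of newborn mice with a conditional Sufu mutation. They are 6 of the 24062 genes in the count tables. They were chosen by name as peripheral nerve genes, with their mutant and control levels in these libraries already known, so those levels are given as a description and carry no test. RNA was sequenced from 8 pups at postnatal day 2, 4 controls and 4 mutants, with polyA selection and 1 library per pup. Mutants were Math1-Cre; Sufu flox/-, that is, their Sufu alleles were a floxed and a null copy, and control littermates were Sufu flox/+. The sources used here do not say if controls had Cre. The pups came from Math1-Cre, Sufu +/- mice crossed to mice homozygous for both a floxed Sufu allele and the Math1 mgfp allele, so that controls and mutants alike would carry a floxed Sufu allele and 1 copy of mgfp, on a strain labelled C57BL/6(mixed). Math1-Cre acts in the lineage of cerebellar granule neurons and the null allele is present in every cell of a mutant, so a difference between the groups does not separate the effects of the Cre deletion from those of the null allele. A letter in the sample titles, P or R, splits each genotype into 2 and 2 libraries, and its meaning is not stated. Controls 1 and 2 and mutants 1 and 2 have P, and controls 3 and 4 and mutants 3 and 4 have R.

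Schwann cells are the glia of peripheral nerves. They arise from the neural crest and wrap axons of cranial and spinal nerves, whereas oligodendrocytes make the myelin of the brain. In a Schwann cell that myelinates, neuregulin from the axon acts through ERBB2 and ERBB3 receptors, the transcription factors SOX10 and POU3F1 turn on Egr2, and EGR2 drives genes of the myelin sheath such as Pmp22 and Prx. Foxd3 and Cdh19 are made earlier, in neural crest cells and Schwann cell precursors. Several of these genes are also active elsewhere: Pmp22 in fibroblasts and many epithelia, Egr2 in the embryonic hindbrain and in activated neurons, and Foxd3 in groups of brainstem and spinal interneurons. In bulk tissue, fewer cells of a type and less RNA per cell cannot be told apart.

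Counts in genes summed to 21479565 to 26638284 per library, spread over 18739 to 19456 genes. Sufu, the targeted gene, stood at 47.7 to 60.8 CPM, which are counts scaled to a common library size, in controls and 31.7 to 39.8 CPM in mutants, with no overlap and a log2 fold change of -0.59. All 12 cerebellar cell markers passed the filter on low counts, and their summed level was 1525 to 2018 CPM in controls and 1714 to 2983 CPM in mutants. With edgeR's quasi-likelihood test, 0 of 15789 genes differed between mutants and controls at an adjusted p under 0.05 (0.00%), 1995 had an unadjusted p under 0.05, and DESeq2 called 52. Mutant 4 stood apart, with a summed level of the Hox genes, which mark hindbrain and spinal cord tissue, of 7.81 CPM, against 66.2 to 181 CPM in the other mutants and 121 to 221 CPM in controls. The member values that mutant 4 moves most, those of Foxd3, Pmp2 and Cdh19, are given with and without it.

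Promoter sequence is shown for the 3 members in which any of 4 motifs was found, because these motifs are bound by the factor families that act in Schwann cells. RefSeq windows on GRCm38.p6 were matched for 4 of the 6 members, Pmp22, Prx, Egr2 and Foxd3, and each sequence below is the 250 bases before a start site, on the plus strand, with the motif matches in capitals.
Prx, chr7:27499074-27499323: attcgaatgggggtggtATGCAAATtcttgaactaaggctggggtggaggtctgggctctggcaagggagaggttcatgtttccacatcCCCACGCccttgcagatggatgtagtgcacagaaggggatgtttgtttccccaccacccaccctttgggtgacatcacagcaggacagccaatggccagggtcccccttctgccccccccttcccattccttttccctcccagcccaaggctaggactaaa
Egr2, chr10:67537620-67537869: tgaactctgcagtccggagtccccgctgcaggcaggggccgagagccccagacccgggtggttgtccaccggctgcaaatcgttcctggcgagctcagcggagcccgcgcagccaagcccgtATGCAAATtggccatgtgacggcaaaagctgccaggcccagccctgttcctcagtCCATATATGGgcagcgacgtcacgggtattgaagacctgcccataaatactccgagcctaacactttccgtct
Foxd3, chr4:99656049-99656298: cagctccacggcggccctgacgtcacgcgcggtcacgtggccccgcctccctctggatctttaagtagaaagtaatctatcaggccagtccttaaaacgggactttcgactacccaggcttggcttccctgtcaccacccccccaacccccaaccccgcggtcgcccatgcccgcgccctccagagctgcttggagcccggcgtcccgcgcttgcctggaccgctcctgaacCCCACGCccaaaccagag

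The motifs were searched on both strands. The octamer ATGCAAAT, bound by POU factors, lies 233 bases before the start site of Prx and 128 bases before that of Egr2. The EGR core GCGTGGG, which reads CCCACGC where it lies on the minus strand, is 161 bases before the start of Prx and 18 bases before that of Foxd3. The Egr2 window also holds a CArG box, bound by serum response factor, 73 bases before the start. Egr2 has 5 windows in the table: 3 that overlap hold this octamer and CArG box, with the octamer 127, 128 or 188 bases before their start sites, 1 holds another CArG box and no octamer, and 1 holds none of the motifs. The window shown is 1 of the 3. The SOX core ACAAAG was in no window of the 4 members, and the 4 windows of Pmp22 held none of the motifs. The motifs did not overlap in these windows. Over all 32851 windows of 300 bases in the table, which add the 50 bases after the start, the octamer was in 1.74%, the EGR core in 5.04%, the CArG box in 1.63% and the SOX core in 18.7%. A match describes the letters of the window and not a binding site.

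Pmp22 encodes a 4-span membrane protein of compact myelin, whose dosage is altered in inherited neuropathies. Its level was 34.0, 47.9, 34.9 and 33.4 CPM in controls 1 to 4 and 31.3, 31.8, 31.9 and 31.0 CPM in mutants 1 to 4. Every mutant lay below every control, and control 2 stood well above the other controls. Controls averaged 37.6 ± 6.94 CPM (SD, n = 4) and mutants 31.5 ± 0.427 CPM (SD, n = 4), which is 16.2% lower, with a log2 fold change of -0.25 (SE 0.12). Without control 2 it was -0.13. Among mutants the spread was below the 1.15 CPM that counting error alone would give, and that of the controls was above their 1.26 CPM. Pmp22 had the highest count of the 6 genes, 6593 over the libraries. The smallest gap between the groups, 33.4 against 31.9 CPM, was close to the counting error.

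Prx encodes periaxin, a scaffold protein of the myelinating Schwann cell that links the sheath to its surroundings through DRP2. Its level was 7.09, 10.7, 8.87 and 8.12 CPM in controls 1 to 4 and 6.17, 8.72, 6.10 and 6.28 CPM in mutants 1 to 4. Mutants 1, 3 and 4 lay below every control, and mutant 2 lay among the controls. Controls averaged 8.69 ± 1.52 CPM (SD, n = 4) and mutants 6.82 ± 1.27 CPM (SD, n = 4), giving a log2 fold change of -0.35 (SE 0.17). The difference between the means was about the size of the spread between libraries.

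Pmp2 encodes a fatty acid binding protein of peripheral myelin. It was near the limit of detection, with 7, 20, 1 and 10 reads in controls 1 to 4 and 8, 8, 1 and 0 reads in mutants 1 to 4, and it did not pass the filter on low counts. The 2 mutants with letter P had levels of 0.350 and 0.344 CPM, within the range of the controls. Mutants 3 and 4 and control 3, all with letter R, had at most 1 read. Controls averaged 0.392 ± 0.312 CPM (SD, n = 4) and mutants 0.185 ± 0.188 CPM (SD, n = 4), and the groups overlapped. The log2 fold change was -1.12 (SE 0.83), and single libraries moved it: it was -0.53 without control 2 and -0.69 without mutant 4.

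Egr2 encodes the zinc finger transcription factor that directs myelination by Schwann cells. Its level was 1.05, 0.859, 1.05 and 1.08 CPM in controls 1 to 4 and 0.962, 0.859, 1.24 and 1.04 CPM in mutants 1 to 4. The groups overlapped over nearly their whole range. The means were 1.01 ± 0.101 CPM (SD, n = 4) and 1.03 ± 0.160 CPM (SD, n = 4), giving a log2 fold change of 0.03 (SE 0.21). With 20 to 28 reads per library, the spread within each group was smaller than the counting error of 0.208 CPM. Among the 5 genes that passed the filter, Egr2 was the 1 with a mean that was not lower in mutants.

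Foxd3 encodes a forkhead transcription factor of neural crest cells and Schwann cell precursors. Its level was 1.67, 1.37, 2.83 and 1.32 CPM in controls 1 to 4 and 1.01, 1.03, 1.19 and 0 CPM in mutants 1 to 4. Every mutant lay below every control, with control 3 high and mutant 4 without a read. The smallest gap, 28 reads in control 4 against 27 reads in mutant 3, was within the counting error. Controls averaged 1.80 ± 0.709 CPM (SD, n = 4) and mutants 0.808 ± 0.545 CPM (SD, n = 4), giving a log2 fold change of -1.17 (SE 0.60). The 0 reads of mutant 4 allow a level of up to 0.112 CPM, which is 3 reads in that library, so the control mean was at least 16.1-fold higher than in that library. Without mutant 4, the log2 fold change was -0.73. The mean of the other 3 mutants was 1.08 ± 0.102 CPM (SD, n = 3), 0.600 of the control mean. Mutant 4 had 0 reads for 7 of the 14748 genes with a control mean of at least 1 CPM, namely Calcb, Foxb2, Foxd3, Gh, Nkx1-1, Pyy and Vip, against 1 or 2 such genes in each other library. With the Hox level of each library as a covariate the Foxd3 log2 fold change was -0.25. That level was by far the lowest in mutant 4, so this fit cannot separate it from that library. The same fit gave -0.28 for Pmp22, -0.37 for Prx, -0.70 for Pmp2, -0.43 for Cdh19 and 0.05 for Egr2. What part the amount of hindbrain tissue has in the Foxd3 difference was not tested.

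Cdh19 encodes a cadherin of Schwann cell precursors and Schwann cells. Its level was 0.891, 1.21, 0.229 and 0.235 CPM in controls 1 to 4 and 0.700, 0.516, 0.354 and 0.223 CPM in mutants 1 to 4. The 4 libraries with letter P all lay above the 4 with letter R, in both genotypes. Controls averaged 0.641 ± 0.490 CPM (SD, n = 4) and mutants 0.448 ± 0.206 CPM (SD, n = 4), and the groups overlapped, at a log2 fold change of -0.57 (SE 0.55). That value rests on single libraries: it was -0.09 without control 2, -0.34 without mutant 4, -0.38 without control 1 and -0.87 without mutant 1. Within P the controls averaged 1.05 CPM and the mutants 0.608 CPM, and within R they averaged 0.232 and 0.288 CPM.

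**Figure D1:**
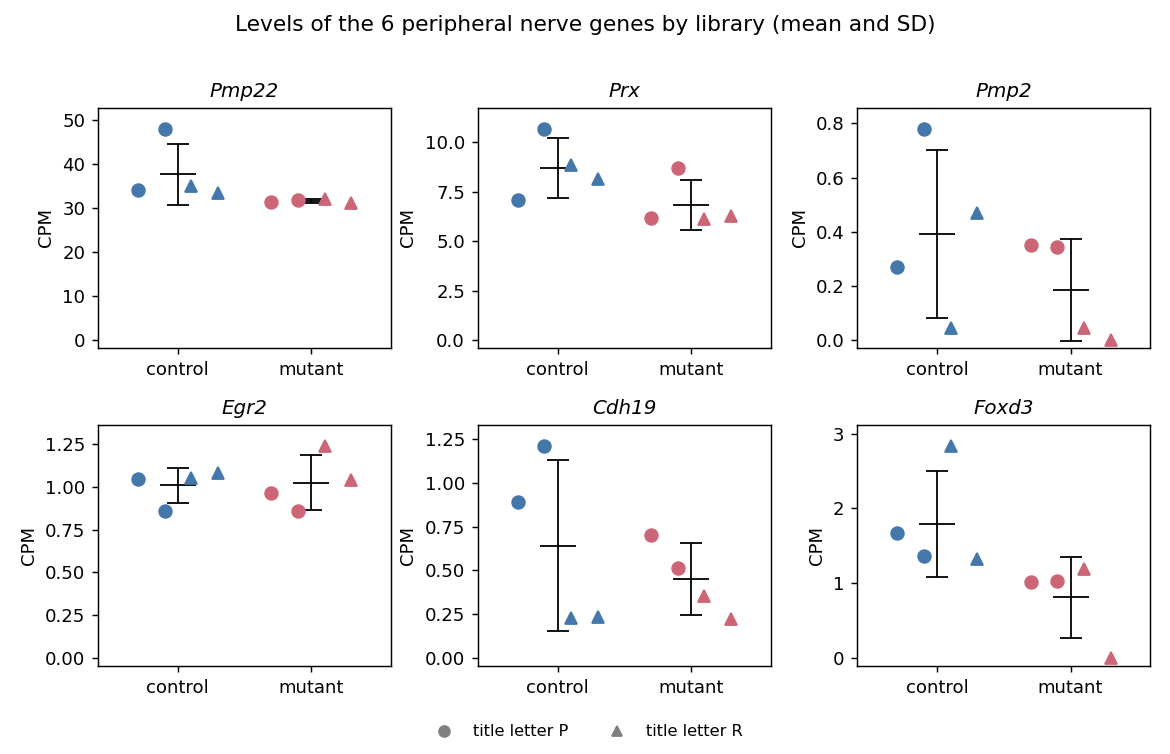
Level of each of the 6 genes in CPM (vertical axes, linear from 0) in the 4 control and 4 mutant libraries; points are libraries, circles have title letter P and triangles R, and the black bars are the mean and SD. Pmp22 and Foxd3 show no overlap between the groups, Egr2 overlaps throughout, and the circles of Cdh19 lie above its triangles.

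Set side by side, the mutants lay below every control for 2 of the 6 members, Pmp22 and Foxd3, and above every control for 0. Over all tested genes, every mutant lay below every control for 2.96% and above every control for 3.60%, and since the members were chosen with these values known, nothing is read from their count. The members with the greatest log2 differences, Foxd3 and Pmp2, had at most 62 reads in a library. Control 2 had the highest level of Pmp22, Prx, Pmp2 and Cdh19, and, with mutant 2, the lowest levels of Egr2. The summed level of the 6 genes, most of it from Pmp22, was 62.8 CPM in control 2, 44.7 to 47.9 CPM in the other controls and 38.6 to 43.3 CPM in mutants.

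The title letter was not used to choose the members, so the differences between letters, and between the genotype differences within each letter, were tested across all genes. With edgeR, 3 genes differed between P and R at an adjusted p under 0.05 (0.0190%), and 0 of the 5 tested members did. For Cdh19 the mean was 0.829 ± 0.297 CPM (SD, n = 4) in P and 0.260 ± 0.0626 CPM (SD, n = 4) in R, a log2 difference of 1.63 (SE 0.33) with an edgeR adjusted p of 0.0587. The adjusted p of the other 4 tested members between letters ranged from 0.475 for Egr2 to 0.956 for Foxd3. The genotype difference itself differed between letters for 505 genes (3.20%), again for 0 of the 5 members, whose edgeR adjusted p ranged from 0.354 for Cdh19 to 0.861 for Egr2. That count of 505 rests on single libraries: it was 1 without mutant 2 and 2155 without mutant 3. Without mutant 3, Foxd3 passed this test (edgeR adjusted p = 0.00825), but the R mutants are then mutant 4 alone, with 0 Foxd3 reads: its spread is assumed to be like that of the other groups, and the size of the difference cannot be measured.

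The exon bin counts show which parts of the members were read. Pmp22, on chromosome 11, has 5 bins, and each stood at 0.770 to 0.863 of its control level in mutants. The last bin held 51.6 ± 4.29% (SD, n = 4) of the Pmp22 bin counts of controls and 53.6 ± 6.37% (SD, n = 4) of those of mutants, so the lower level was spread along the gene. Egr2, on chromosome 10, has 2 bins, of which the second held 85.0% of the control and 88.4% of the mutant bin counts.

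Prx, on chromosome 7, was uneven along its 8 bins. Bin 8 held 78.2 ± 2.29% (SD, n = 4) of the counts of controls and 80.1 ± 4.56% (SD, n = 4) of those of mutants. Bins 1 to 4, at the start of the gene, held 9, 20, 8 and 8 reads in controls 1 to 4 and 6, 9, 0 and 2 reads in mutants 1 to 4. Their share of the Prx bin counts averaged 4.61 ± 1.20% (SD, n = 4) across controls and 2.20 ± 1.95% (SD, n = 4) across mutants. It was 3.77% and 3.91% in mutants 1 and 2, close to the 3.72 to 6.37% of the controls, and 0% and 1.12% in mutants 3 and 4. The exact (Clopper-Pearson) 95% interval, which covers counting error only, was 0 to 2.43% in mutant 3 and 0.136 to 3.98% in mutant 4. It was 3.93 to 9.67% in control 2, which lies above that of mutant 3, and the intervals of the other controls overlapped both. Bins 5 to 8 carried the rest in every library, and stayed at 150 and 177 reads in mutants 3 and 4, against 190 to 294 reads in controls. The split at bin 4 was chosen after the values were seen.

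Another Schwann cell transcript, named after its values were seen, was also lowest in mutants 3 and 4. Ncmap, a myelin protein made by Schwann cells, was 0.968 to 1.17 CPM in controls, 0.919 and 0.902 CPM in mutants 1 and 2, and 0.398 and 0.297 CPM in mutants 3 and 4. The Pmp22 and Prx totals did not share this split. Mutants 3 and 4 held Pmp22 at the level of mutants 1 and 2, and Prx at the level of mutant 1. Other Schwann cell genes were mixed: Erbb3 was also lowest in mutants 3 and 4, Ngfr was not, and Col28a1 was highest there.

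**Figure D2:**
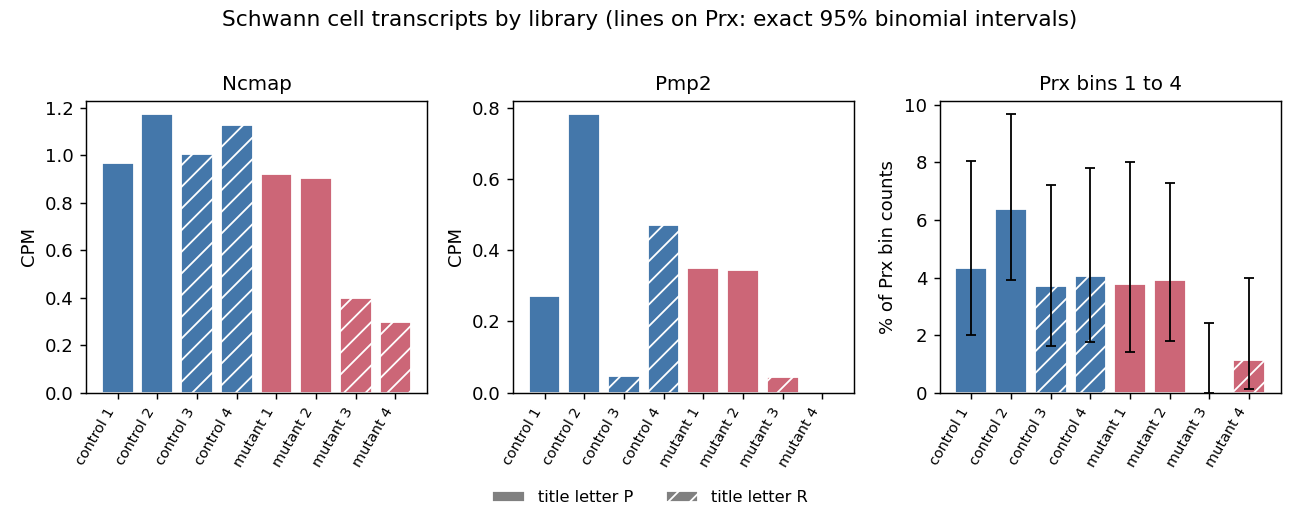
Levels of Ncmap and Pmp2 in CPM, and the share of Prx bin counts that lie in bins 1 to 4, in each library (bars from 0; plain bars have title letter P, hatched bars R; lines on Prx are exact 95% binomial intervals). For Ncmap mutants 3 and 4 are the lowest, at 0.398 and 0.297 CPM, with mutants 1 and 2 near the controls; for Pmp2 control 3 is as low as mutant 3, with 1 read each.

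Among 20 other genes known from Schwann cells, 19 were in the tables and all 19 were tested. With edgeR 0 passed over all genes tested, 8 had an unadjusted p under 0.05 (12.6% of all tested genes did), of which 6 were lower and 2 higher in mutants, and the mean was lower in mutants for 13 and higher for 6. Their median log2 fold change was -0.46, against 0.01 over all tested genes. Over all tested genes 7535 means were lower and 8254 higher in mutants. Genes of a list can move together across libraries, so counts of lower means are not separate observations. Every mutant lay below every control for 3 of the 19, Ncmap, Erbb3 and Sox10, against 2.96% of all tested genes. The count was 5 without mutant 2 and 5 without control 4, while over all tested genes it went from 468 to 785 and 760. For Ncmap the smallest gap, 0.968 against 0.919 CPM, was within its counting error of 22.4% per library. Some of these genes are made by other cells of the cerebellum too: Sox10 by oligodendrocytes, Pou3f1 by neurons and Ngfr by granule cell precursors. Drp2 and Fgd4 averaged 67.1 and 30.3 CPM in controls, against 1.07 CPM for Ncmap. Which cells made the RNA of Drp2 and Fgd4 was not tested.

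Erbb3, the neuregulin receptor of Schwann cells, was 2.17, 2.65, 2.19 and 1.64 CPM in controls 1 to 4 and 1.31, 1.55, 0.707 and 0.743 CPM in mutants 1 to 4. The R mutants were the lowest 2 libraries. Sox10, the transcription factor of neural crest and of both kinds of myelinating glia, was 58.6, 49.7, 58.8 and 49.6 CPM in controls and 41.1, 39.5, 38.4 and 25.1 CPM in mutants. Pou3f1, the octamer factor that acts upstream of Egr2, was 9.99, 5.78, 7.86 and 10.1 CPM in controls and 3.59, 6.10, 5.39 and 2.75 CPM in mutants, so that mutant 2 overlapped the controls. None of these 3 passed with edgeR, each with an adjusted p of 0.381.

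Other Schwann cell genes were not lower. Drp2, which encodes the partner of periaxin, averaged 67.1 ± 2.10 CPM (SD, n = 4) across controls and 69.7 ± 6.76 CPM (SD, n = 4) across mutants. Ngfr, the low-affinity neurotrophin receptor, averaged 72.5 ± 11.7 CPM (SD, n = 4) and 74.5 ± 9.22 CPM (SD, n = 4). Sh3tc2 and Fgd4, genes of inherited demyelinating neuropathies, had higher means in mutants, at 2.82 against 2.01 CPM and 38.4 against 30.3 CPM. Col28a1, which encodes a collagen of peripheral nerve, was the 1 gene of the 19 whose genotype difference differed between letters (3.20% of all genes). Its level was 4.24 and 5.03 CPM in mutants 1 and 2, 9.02 and 11.5 CPM in mutants 3 and 4 and 4.13 to 5.58 CPM in controls, with a log2 difference of -1.37 (edgeR adjusted p = 0.0376). That call was lost in 7 of the 8 fits that leave out a library, and held without mutant 3.

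**Figure D3:**
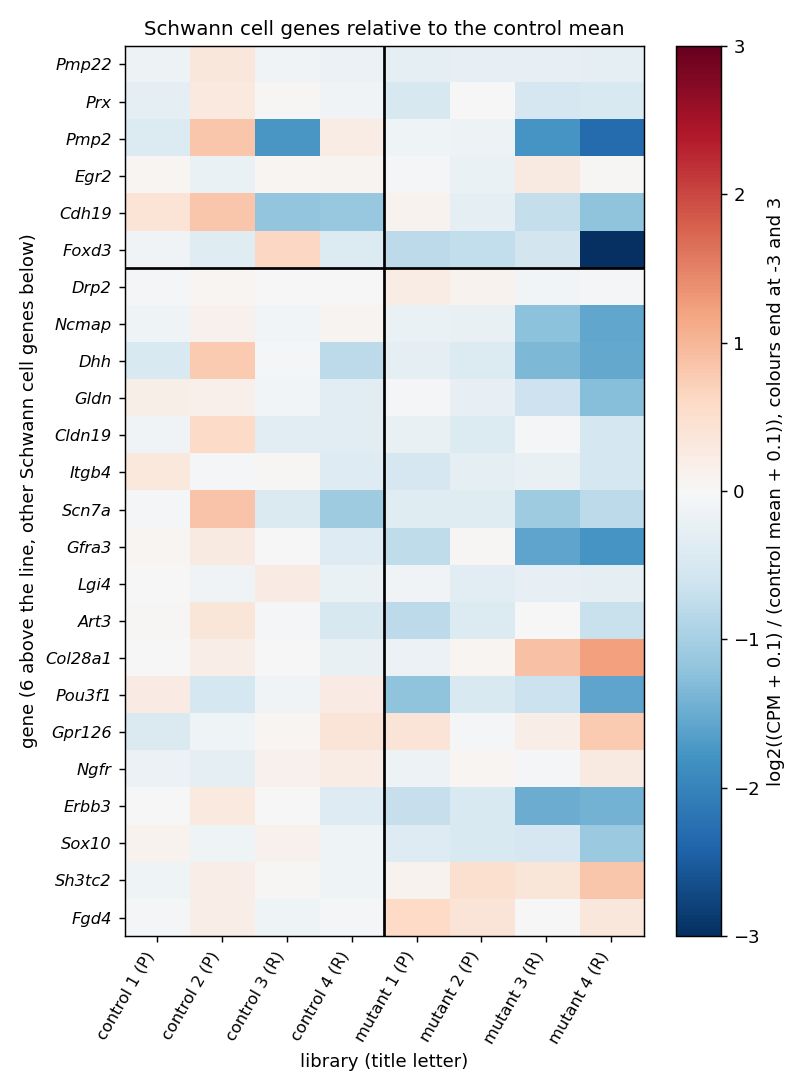
Level of each Schwann cell gene in each library relative to the mean of the 4 controls, as log2 of the ratio after adding 0.1 CPM to both, with colours ending at -3 and 3; the 6 genes are above the black line and 18 other Schwann cell genes below it. Foxd3 holds the darkest blue cell, in mutant 4, while Drp2 and Ngfr are pale throughout.

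Genes of myelin and of myelinating glia that Schwann cells share with oligodendrocytes were lower by mean in 13 of 14 cases. Not all, S100b for one, encode proteins of the myelin sheath. The median log2 fold change over the 14 was -0.62, and 0 of 14 passed with edgeR (0.00% of all tested genes). Every mutant lay below every control for 4 of them, Mag, Gjb1, Pllp and S100b, against 2.96% of all tested genes. Without mutant 1 that count was 10, and without control 4 it was 7; over all tested genes it went from 468 to 1326 and 760. Mbp, a major protein of central and peripheral myelin, averaged 507 ± 117 CPM (SD, n = 4) across controls and 274 ± 130 CPM (SD, n = 4) across mutants. It was lowest in mutant 4, at 100 CPM. Mag, a glycoprotein of the sheath next to the axon, averaged 41.3 ± 11.3 CPM (SD, n = 4) across controls and 19.8 ± 10.3 CPM (SD, n = 4) across mutants.

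Partners of EGR2 and the neuregulin pathway were mixed. Of 19 tested genes 8 had lower and 11 higher means in mutants, with a median log2 fold change of 0.10. With edgeR 0 passed (0.00% of all tested genes). Nab1 and Nab2, corepressors that bind EGR2, were 35.0 and 8.65 CPM on average in controls and 34.2 and 7.56 CPM in mutants. Erbb2, the coreceptor of ERBB3, averaged 18.0 ± 1.06 CPM (SD, n = 4) and 19.8 ± 3.50 CPM (SD, n = 4), and Nrg1, the ligand, 15.3 ± 2.08 CPM (SD, n = 4) and 16.0 ± 2.35 CPM (SD, n = 4). Yap1, a coactivator of the Hippo pathway, was higher in every mutant than in any control, at 57.4 to 69.8 against 45.2 to 51.3 CPM (3.60% of all genes). Among 16 neural crest and Schwann cell precursor genes, the setting in which Foxd3 and Cdh19 are made, 6 had lower and 10 higher means and 0 passed.

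Relatives of the members, from the same protein families, gave 0 calls by genotype with edgeR, which called 0.00% of all tested genes. Emp1, Emp2 and Emp3, of the PMP22 family, had means of 33.7, 85.0 and 8.01 CPM in controls and 32.5, 65.1 and 7.07 CPM in mutants, overlapping between groups. Egr1, an activity-induced gene, averaged 7.58 ± 1.67 CPM (SD, n = 4) and 7.59 ± 1.41 CPM (SD, n = 4), and Egr3 averaged 1.11 ± 0.932 CPM (SD, n = 4) and 0.650 ± 0.232 CPM (SD, n = 4). Ahnak, a giant scaffold protein related to periaxin, averaged 41.2 ± 12.9 CPM (SD, n = 4) and 47.7 ± 8.79 CPM (SD, n = 4). Of the type II cadherins other than Cdh19, 8 of 12 had lower means, while Cdh11 and Cdh20 were higher in every mutant than in any control (3.60% of all genes). Cdh11 stood at 123 to 143 against 101 to 117 CPM and Cdh20 at 49.5 to 64.3 against 41.9 to 48.1 CPM. Foxd1, made in meningeal fibroblasts, averaged 7.29 ± 2.56 CPM (SD, n = 4) and 5.98 ± 1.58 CPM (SD, n = 4), and Foxd2 averaged 0.725 ± 0.157 CPM (SD, n = 4) and 0.784 ± 0.238 CPM (SD, n = 4). Among the 6 tested relatives of Pmp2, which bind fatty acids or retinoids, 5 had lower means and none was without overlap.

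Markers of neurons whose axons run in peripheral nerves had lower means in mutants. All 8 tested cranial motor neuron genes had lower means in mutants, with a median log2 fold change of -1.20, and for 5 of them every mutant lay below every control (2.96% of all tested genes). The summed level of all 10 genes of this list, tested or not, was 107 to 142 CPM in controls and 9.74 to 76.3 CPM in mutants. Prph, a neurofilament protein of neurons with peripheral axons, was 45.4 to 61.5 CPM in controls and 21.7, 17.7, 8.93 and 1.41 CPM in mutants 1 to 4. Tbx20, a transcription factor of hindbrain motor neurons, split between the mutants of the letters: it was 3.10 to 4.84 CPM in controls, 3.59 and 2.66 CPM in mutants 1 and 2 and 0.265 and 0.0372 CPM in mutants 3 and 4. Its genotype difference differed between letters, by 3.89 on the log2 scale (edgeR adjusted p = 0.0199), a call that was lost in 6 of the 8 fits that leave out a library. All 9 tested genes of sensory ganglion neurons, which are wrapped by satellite glia, relatives of Schwann cells, also had lower means. Their median log2 fold change was -0.77. The summed levels of all 11 genes of this list that had counts, tested or not, were 23.9 to 41.1 CPM in controls and 8.66 to 20.3 CPM in mutants. For 2 of these 9 every mutant lay below every control (2.96% of all tested genes). With edgeR 0 genes of both lists passed by genotype (0.00% of all tested genes). DESeq2 called Isl1, a motor neuron transcription factor, and Calca, a sensory neuropeptide gene. What part of the members' levels moves with the amount of nerve, ganglion or brainstem tissue was not tested.

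Other cell types were compared in the same way, and 0 genes of these lists passed with edgeR (0.00% of all tested genes). Of 13 tested genes of the oligodendrocyte lineage that Schwann cells lack, 12 had lower means, with a median log2 fold change of -0.42. The summed levels of all 14 genes of that list were 850 to 1068 CPM in controls and 605 to 826 CPM in mutants. All 13 tested Hox genes had lower means, and for 1 of them every mutant lay below every control (2.96% of all tested genes). The summed levels of all 26 Hox genes overlapped, at 121 to 221 CPM in controls and 7.81 to 181 CPM in mutants. Fibroblast genes of meninges and nerve sheath, cells that also make Pmp22, had lower means in 10 of 14 cases, with a median of -0.20 and summed levels that overlapped, at 866 to 1568 CPM in controls and 982 to 1364 CPM in mutants. Control 2 had the highest summed level of the fibroblast genes, as it had of Pmp22. Microglia and macrophage genes had lower means in 10 of 11 cases, with a median of -0.30 and summed levels of 184 to 287 CPM in controls and 155 to 224 CPM in mutants. Of 12 astroglia and radial glia genes 6 had lower and 6 higher means, with summed levels of 4467 to 4913 CPM in controls and 4005 to 4878 CPM in mutants. Endothelial genes had higher means in 10 of 10 cases, with a median of 0.33, and all 12 cerebellar cell markers had higher means, with a median of 0.36.

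**Figure D4:**
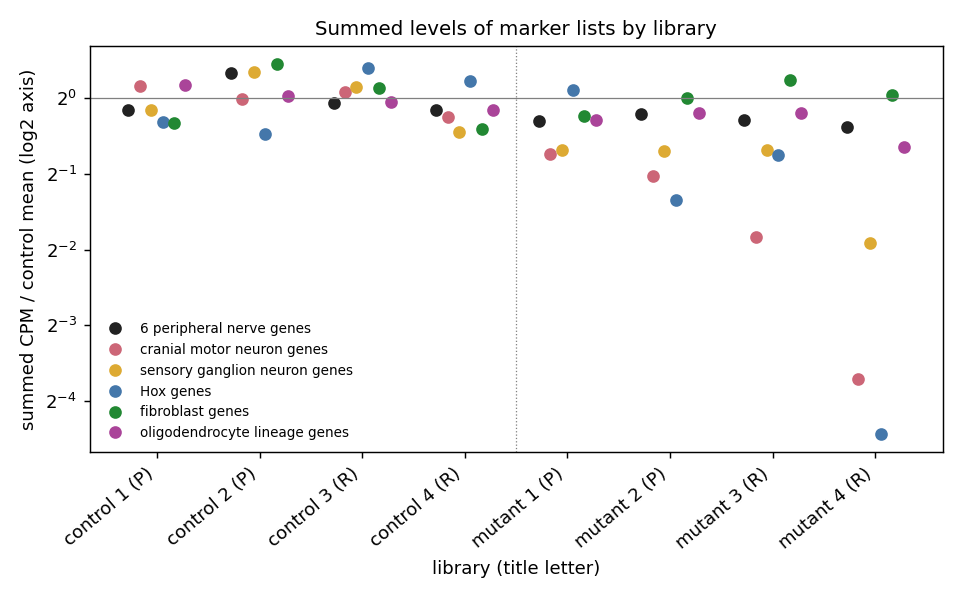
Summed CPM of 6 gene lists in each library divided by the mean of the 4 controls (vertical log2 axis; each point is 1 list in 1 library, and the letter after a library is its title letter). In mutant 4 the cranial motor neuron genes stand at 0.0763 and the Hox genes at 0.0464 of the control mean, and the sum of the 6 peripheral nerve genes, most of it Pmp22, at 0.769, though Foxd3 and Pmp2 have 0 reads there.

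The genes most like the mean profile of the 5 tested members were sought among 14701 genes with a mean of at least 1 CPM. The measure was the Pearson correlation over the 8 libraries of deviations from the group means. The members did not share 1 profile: the correlations between pairs of them ran from -0.765 for Prx and Egr2 to 0.639 for Pmp22 and Prx. The highest were Gm10069 (0.966), Neurl3, Snhg18, Slc16a9, Marveld2, Slc25a45, Apoc1, 2610018G03Rik, Slc26a7 and Cldn11 (0.916). The measure rests on single libraries, since 0 of the 10 were among the 10 highest without control 2 or without mutant 4. The 8 libraries share 1 scaling, and the correlation is a description.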

How the data were processed

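Whole cerebella of 8 mouse pups at postnatal day 2 were lysed in TRIzol and their polyA RNA was made into Illumina TruSeq libraries, 1 per pup, per the labels' protocols. The authors deposited raw counts per gene and per exon bin, not normalized. The submitters' processing notes list TopHat, HTSeq, DESeq2 and the build mm9, with no tool version. Strand use in counting is not stated, so antisense and overlapping genes cannot be told apart. Entries that name no gene, 24.8 to 34.3% of each gene table, were left out. Bin names give a chromosome and an order; coordinates in the report are those of RefSeq promoter windows on GRCm38.p6 and no count was placed on them.

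The tests were run in edgeR 4.0.16 under R 4.3.3 (quasi-likelihood F test, robust, two-sided, filterByExpr, TMM factors of 0.986 to 1.01, Benjamini-Hochberg threshold 0.05) for genotype, for title letter with genotype as a covariate, and for their interaction. CPM values use the TMM-scaled library sizes, and log2 values a prior count of 2 where they enter a score or a likeness. Standard errors were derived from F statistics. No pair of libraries of the same genotype was a copy (chi-square per degree of freedom 7.76 to 85.7). The pups are separate animals; the labels do not number them, so that replicate numbers are in accession order and pair nothing. Alternatives were DESeq2 1.42.0, other scalings, no filter, the title letter as a block, a Hox covariate, single letters, bin sums and leaving out each library. The steps were tested on simulated data with planted changes larger than the genotype differences of the members. Those runs do not show how well smaller changes are found.

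The members, the 21 gene lists, which hold 227 genes, and the motifs were chosen with earlier results of these data known; 3 list names were unmatched. Named genes were the members, Sufu, up to 4 genes of each list with the smallest p, the families, Sox10, Mbp, Mag and the 10 most alike; some genes of the lists are not reported here. Ncmap, Drp2, Ngfr, Sh3tc2, Fgd4, Col28a1, Tbx20, Yap1, Nab1, Nab2, Nrg1, Erbb2 and those that make up a count were added after their values were seen. So were Dhh, Gfra3 and Gldn.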

Additional observations from a re-analysis of the deposited data

Results flagged for a closer look

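In 122 groups of 4 libraries, 61 genes in 2 groups each, 13 (10.7%) held a library far from the other 3. About 1 in 20 groups of independent values would meet this cut. Many of these genes were named with their values known, and all share the same libraries. That rate is therefore no measure of what chance gives here. Among the members these were Pmp22 in control 2 (47.9 CPM, the others 33.4 to 34.9), Prx in mutant 2 (8.72 CPM, the others 6.10 to 6.28), Egr2 in control 2 (0.859 CPM, the others 1.05 to 1.08) and Foxd3 in mutant 4 (0 CPM, the others 1.01 to 1.19). Control 2 was also apart for Nab1 (39.3 CPM) and Scn11a, a sodium channel of sensory neurons (3.01 CPM, the other controls 0.968 to 1.05). Mutant 4 was also apart for Sox10 (25.1 CPM), Pllp (6.06 CPM, the others 10.7 to 10.8) and Crabp2, a retinoic acid binding protein (5.80 CPM). The other cases were Nab2 in control 1 (7.13 CPM), Egr1 in mutant 2 (9.71 CPM), and Cdh11 in control 1 (101 CPM) and in mutant 3 (123 CPM). The genotype difference differed between title letters for Col28a1, by -1.37 on the log2 scale, and for Tbx20, by 3.89.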

How the results depend on the processing

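Over 18 alternatives each, the log2 fold change stayed negative for Pmp22 (-0.38 to -0.13), Prx (-0.51 to -0.25), Pmp2 (-3.35 within letter R to -0.53) and Foxd3 (-1.90 to -0.25), and in 17 of 18 for Cdh19 (-0.87 to 0.28, positive within R). For Egr2 it was -0.07 to 0.08. The count of genes that differed by genotype was 0 with edgeR, 52 with DESeq2, and 0 to 1 when each library was left out. The count between letters was 3, then 0 with RLE factors, 196 without a filter and 0 to 1 with a library left out. The interaction count was 505, and 1 to 2155 with a library left out. Of the 6 members, 2 to 3 had every mutant below every control, and of the other 19 Schwann cell genes 3 to 5. Over all tested genes that count moved too, from 452 to 1326 across the same settings, against 468 in the main fit. Small differences changed sign: with each library left out, the interaction of Prx ran from -0.066 (without control 1; -0.050 without mutant 2) to 0.545, against 0.20 with all libraries. That of Pmp22 ran from -0.48 to 0.030 (without control 2), against -0.26. The P minus R difference of Foxd3, 0.07, ran from -0.37 (without mutant 4) to 0.54, and was also below 0 without mutant 1, mutant 2 or control 4. The causes were not tested. No paired analysis was possible because the labels give no replicate numbers; with the title letter as a block the genotype count was 0. Genes with under 30 reads per library, which here include Pmp2, Egr2 and most Cdh19 and Foxd3 values, cannot show small differences at this depth.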
